A study of Mus musculus with 12 samples.

Results

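The differentiation of CAG150 mouse embryonic stem cells between day 4 and day 6 was described from the 6 CAG150 arrays of a series of 12, 3 at each day. The arrays were chosen by the line and day in their sample titles. All 45037 probe sets other than the array's controls were used. Embryonic stem cells are cultured cells of the early embryo that can form every tissue. Per the series title CAG150 carries an expanded CAG repeat. From what is known of the study, the repeat is in Htt, whose expansion causes Huntington's disease. The other 6 arrays, 3 per day, hold HM1, a mouse embryonic stem cell line with an inactive Hprt gene, at the same days of neuronal differentiation. The sample descriptions disagree with the titles for day 6: they give the earlier day for HM1 and replicate 1 for each day 6 sample of both lines, and the titles were used. There was 1 line of each kind, and nothing in the labels says how CAG150 was made, how the cells were grown or treated, or whether the samples of a group came from separate cultures. All p-values therefore measure only the spread between these samples, which may be technical.

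As background, embryonic stem cells on the way to neurons first switch off their stem cell genes and become neuroepithelial progenitors that divide and carry Sox2, Pax6 and Nes. Notch signalling between neighbouring cells holds most progenitors back, while cells with high proneural transcription factors such as Neurog2 leave the cell cycle and switch on neuronal tubulin, neurofilament and growth cone genes. Signals from the roof plate, the floor plate and the boundary of midbrain and hindbrain, and retinoic acid from the mesoderm, give the cells their position along the neural tube.

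The 6 CAG150 arrays were close to each other. Within a day the correlation of arrays over all probe sets was 0.989 to 0.991, the median intensity lay between 20.8 and 25.9, and the ratio of the 3 prime to the 5 prime Gapdh control, a measure of RNA integrity, lay between 0.744 and 0.839. Replicate 2 of HM1 at day 4 stood apart, with an 18S ribosomal RNA control of 2480 against 105 to 502 on the other arrays. Without it 2538 genes were higher and 2500 lower at day 6 in CAG150, since all arrays share the estimate of the spread. Intensities are linear, on an array scale with a trimmed mean of 150. Differences are on the log2(intensity + 16) scale, which understates the change of dim genes. Folds are these differences taken as powers of 2, so they are not ratios of the printed intensities. Where a day mean lies near the signal filter, the difference is also given with pseudocounts of 1 and 64 for the genes on which a statement rests. The value after ± is the SD over 3 arrays for an intensity and the SE of the fit for a log2 difference. Adjusted p-values are limma's, over all probe sets, and genes with a value below 0.05 are said to have passed. Each gene is its brightest probe set, and intensities of different genes are not compared, since each probe set has its own response.

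From day 4 to day 6 most listed genes of neurons and of neural progenitors were higher in CAG150 cells (28 of 33 cytoskeletal and 21 of 29 progenitor genes), and 23 of 31 DNA replication genes were lower. Over all 18193 genes 13.6% were higher and 13.5% lower. Of all genes 5913 lay below the signal filter, where few passed, while all genes of these lists lay above it. Tubb3, the neuronal beta tubulin, was 628, 669 and 516 on the day 4 arrays and 2630, 3510 and 3130 on the day 6 arrays. All day 6 arrays lay above all day 4 arrays, and the rise was 5.0-fold (log2 difference 2.32 ± 0.12, adjusted p = 1e-09). Nes, the intermediate filament of neural progenitors, was 109, 132 and 131 and then 312, 334 and 351 (1.32 ± 0.13, adjusted p = 1.6e-06). Pax6, a neuroepithelial transcription factor, was 352, 338 and 294 and then 815, 818 and 711 (1.21 ± 0.08, adjusted p = 2.8e-08), so progenitor genes rose beside neuronal ones. The 3 other probe sets of Pax6 above the filter ranged from -0.02 to 1.08, and 2 of them passed as higher. The labels give the source as the nervous system, and these markers were measured well above the signal filter at both days. In samples of whole cultures, more cells of a type and more RNA per cell cannot be told apart.

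Of 18193 genes, 4923 passed (27.1%), 2472 higher at day 6 (13.6%) and 2451 lower (13.5%). Centring each array on its median shifts the median over all genes from 0.00 to -0.1, and then 1777 were higher and 3259 lower. None of the genes that passed changed direction under that centring or under quantile normalization. The rises were larger than the falls: 541 genes rose and 276 fell by at least 2-fold, and 102 rose and 20 fell by at least 4-fold. The arrays of both days did not overlap for 7583 genes (41.7%), of which 4860 passed. Without any 1 of the 6 CAG150 arrays, 1723 of the higher and 1655 of the lower genes passed each time. Of the genes, 5913 lay below a signal of 11.9, the 40th percentile of probe sets, and 194 of these passed. The other 12280 held most that passed, so the share among them was above 27.1%. Counts in lists of genes above that signal are to be read beside this higher share.

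**Figure D1:**
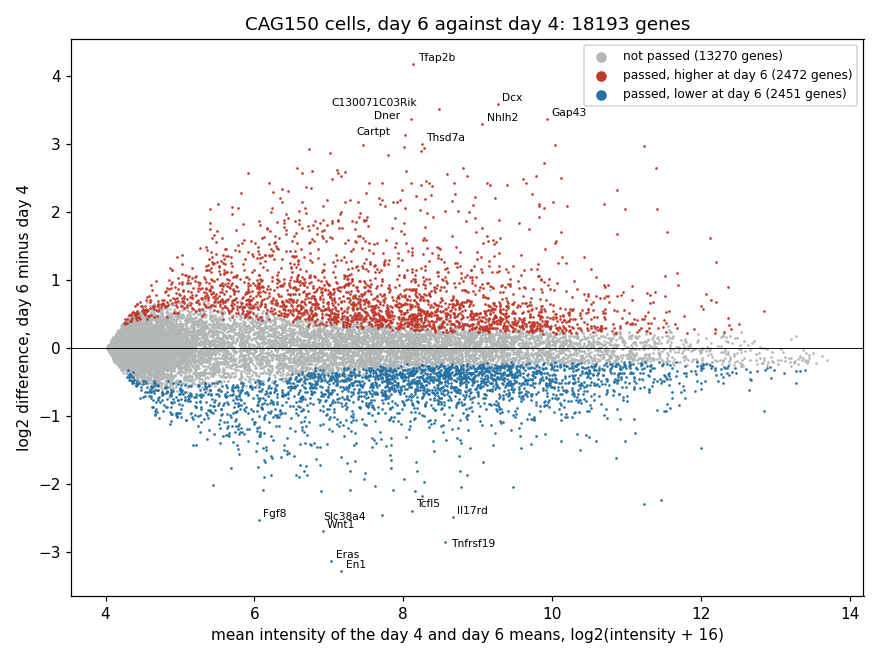
Log2 difference of day 6 minus day 4 in CAG150 (vertical) against mean signal on the log2(intensity + 16) scale (horizontal), 1 point per gene, coloured by whether it passed limma's adjusted p under 0.05. The 2472 genes higher and 2451 genes lower at day 6 are close in number, but the rises reach 4.17 (Tfap2b) and the falls -3.27 (En1).

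The 15 largest rises, among genes that passed, did not overlap between days and reached an intensity of 50, were led by transcription factors and proteins of the growing axon. Tfap2b, an AP-2 transcription factor of neural crest and dorsal neural tube, was 10.9, 18.6 and 11.5 at day 4 and 512, 464 and 569 at day 6. It went from near the background of the array to a clear signal on every day 6 array (4.17 ± 0.16, adjusted p = 5.5e-11). The size depends on the pseudocount: it was 5.17 with 1 and 2.90 with 64, and with 64 the differences of Dcx (3.05) and Gap43 (3.06) were larger. Dcx, doublecortin, which binds microtubules in migrating young neurons, was 78.7, 85.3 and 71.3 and then 1090, 1100 and 1170. This was a 12-fold rise with little spread at either day (3.59 ± 0.09, adjusted p = 5.4e-13). Gap43, a growth cone phosphoprotein, was 155, 159 and 152 and then 1720, 1810 and 1750, a 10.4-fold rise (3.37 ± 0.09, adjusted p = 5.4e-13). Nhlh2, a neuronal bHLH factor, was 85.7, 83.7 and 78.7 and then 1010, 855 and 984, a 9.76-fold rise (3.29 ± 0.1, adjusted p = 3.6e-12).

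C130071C03Rik, a long non-coding transcript, was 49.2, 38.5 and 35.8 at day 4 and 614, 547 and 751 at day 6, an 11.4-fold rise (3.51 ± 0.14, adjusted p = 6.6e-11). Its day 6 arrays spread more than those of Dcx, but all lay far above day 4. In RefSeq on GRCm38.p6 the gene spans chr13:83721381-83741308 on the plus strand and holds the precursor Mir9-2, which gives the neural microRNA miR-9 that is known to be made in neural progenitors and young neurons. The array measures the host transcript and not the microRNA. The mature sequences of both arms are shown because the host was among the 15 largest rises, with the seed, bases 2 to 8, in capitals. They lie at chr13:83738821-83738843 and chr13:83738858-83738879.

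mmu-miR-9-5p: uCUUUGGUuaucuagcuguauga

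mmu-miR-9-3p: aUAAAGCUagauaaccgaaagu

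Among the largest rises, 8 of 15 had a RefSeq promoter entry, taken as the 250 bases before the start. Of these 8, 2 held CAGCTG and 2 held CAGATG or CATCTG, the E-box letters that proneural bHLH factors are known to bind, and 0 held CACGTG. Both strands were searched. CAGCTG and CACGTG read the same on both strands, CATCTG is CAGATG on the other strand, and no base string counts as more than 1 of the motifs. Of all 27025 promoters, 12.8% held CAGCTG, 14.5% held CAGATG or CATCTG and 6.05% held CACGTG, and a match is a description of the letters and not a binding site. Among the largest falls, 10 of 15 had an entry: 2 held CAGCTG, 0 held CAGATG or CATCTG and 1, En1, held CACGTG. The windows of 2 of the largest rises and of the largest fall are shown with these letters in capitals. They are chr3:102009895-102010144 for Nhlh2 (CAGATG from 127 bases before the start), chr13:83721131-83721380 for C130071C03Rik (CAGCTG from 131 bases before) and chr1:120602237-120602486 for En1 (CACGTG from 175 and from 158 bases before), all on the plus strand of GRCm38.p6, from RefSeq.

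Nhlh2: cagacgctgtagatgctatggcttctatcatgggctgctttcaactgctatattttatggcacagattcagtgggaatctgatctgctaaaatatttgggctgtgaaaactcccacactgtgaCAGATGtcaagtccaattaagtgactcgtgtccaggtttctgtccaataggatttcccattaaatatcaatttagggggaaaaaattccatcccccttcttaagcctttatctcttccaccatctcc

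C130071C03Rik: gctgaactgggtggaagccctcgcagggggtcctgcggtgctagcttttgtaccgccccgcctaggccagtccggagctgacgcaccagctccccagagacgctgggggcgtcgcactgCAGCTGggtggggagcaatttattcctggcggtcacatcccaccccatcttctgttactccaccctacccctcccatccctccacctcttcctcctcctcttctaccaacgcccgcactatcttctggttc

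En1: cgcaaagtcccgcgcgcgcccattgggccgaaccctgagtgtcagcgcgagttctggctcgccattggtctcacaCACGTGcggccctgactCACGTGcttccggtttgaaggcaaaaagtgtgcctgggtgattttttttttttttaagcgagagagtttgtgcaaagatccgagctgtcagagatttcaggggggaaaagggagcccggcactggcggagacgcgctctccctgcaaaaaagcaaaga

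The other 10 of the largest rises lay between 7.46-fold and 10.3-fold. Dner, a neuronal ligand of Notch, was 41.5, 29.4 and 26.6 and then 544, 388 and 523 (3.37 ± 0.14). Cartpt, the precursor of a neuropeptide, was 36.9, 27.2 and 49.1 and then 476, 445 and 426 (3.13 ± 0.14). Hoxb2, a regulator of hindbrain segments, was 47.9, 67.2 and 52.1 and then 539, 538 and 519 (2.94 ± 0.13). Of these 3 genes only Dner had a day 6 array, the second, clearly below the others. Thsd7a (3.00 ± 0.12), Mab21l1 (2.99 ± 0.15) and Ckb, brain creatine kinase (2.98 ± 0.12), followed, then Nefm, Mapt and Stmn4, which belong to the cytoskeletal genes described next. Runx1t1, a transcriptional corepressor, was 4.46, 8.2 and 10.9 and then 232, 100 and 183. Its log2 difference of 2.92 ± 0.24 was 4.28 with a pseudocount of 1 and 1.67 with 64, since its day 4 mean lay below the signal filter. For Dcx, Dner, Tfap2b, C130071C03Rik, Mab21l1, Mapt, Thsd7a and Runx1t1, each other probe set above the filter passed in the same direction.

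**Figure D2:**
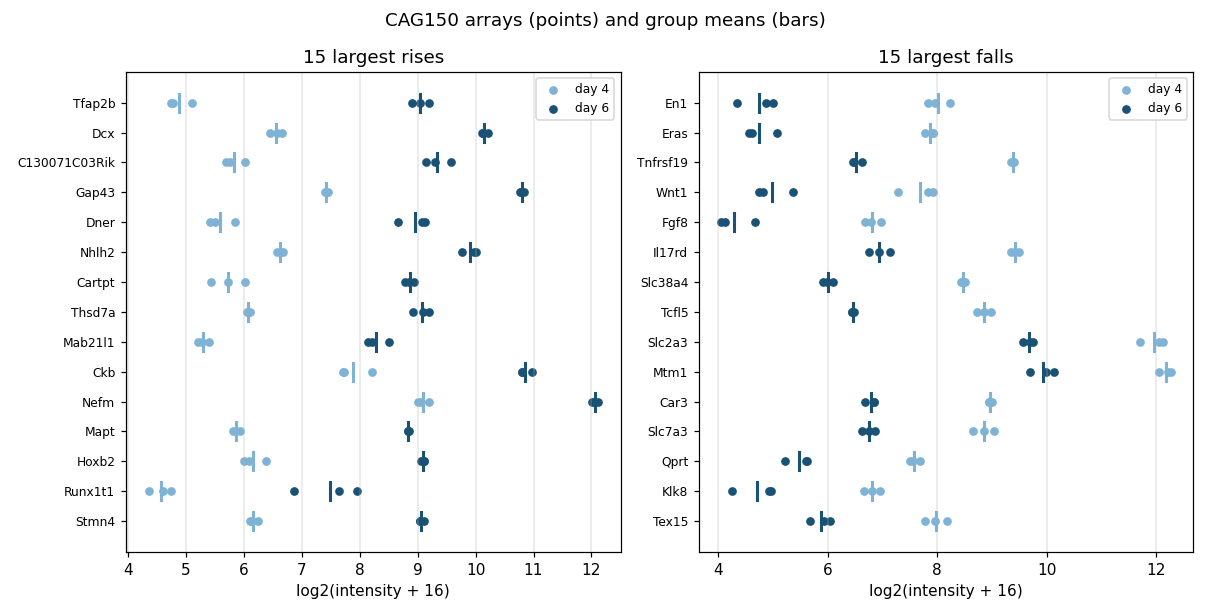
Log2(intensity + 16) on each CAG150 array (points) with the mean of the 3 arrays of a day (bars) for the 15 largest rises (left) and the 15 largest falls (right), in order of the difference. The days are separate for every gene, as the choice of these genes required, and Runx1t1 has the widest spread at day 6, with intensities of 100 to 232.

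Proneural and neurogenic transcription factors rose together. Of 28 with a probe set, 24 rose and 0 fell, with a median log2 difference of 1.48 against 0.00 over all genes. Neurog2, which commits progenitors to a neuronal fate, was 41.5, 51.8 and 32.7 and then 298, 236 and 362 (2.43 ± 0.16, adjusted p = 2.1e-08). The Ebf factors, which act downstream of the proneural genes, followed the same course: Ebf2 went from 38.1 ± 8.23 to 374 ± 80.2 (2.84 ± 0.15) and Ebf3 from 107 ± 9.29 to 756 ± 16.9 (2.65 ± 0.1). Myt1, a zinc finger factor that opposes Notch, was 9.54, 17.6 and 11 and then 157, 131 and 173 (2.57 ± 0.2, or 3.53 and 1.5 with pseudocounts of 1 and 64). Cdkn1c, a cell cycle inhibitor of cells that stop dividing, went from 113 ± 14.8 to 675 ± 51.5 (2.43 ± 0.09, adjusted p = 4.3e-11). The 4 members that did not pass were Atoh1, Neurod6 and Insm2, which lay below the filter, and Cbfa2t3.

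Of 33 genes of the neuronal cytoskeleton and growth cone, 28 rose and 1 fell (median 1.55), the highest median among 38 lists. Nefm and Nefl, the medium and light neurofilament proteins, went from 528 ± 37.7 to 4250 ± 153 (2.97 ± 0.09) and from 729 ± 96.3 to 4610 ± 120 (2.64 ± 0.08). Nefh, the heavy neurofilament protein of mature axons, was the member that fell, from 89.6 to 54.9 (-0.57), so the neurofilament genes did not all move alike. Mapt, the axonal protein tau, was 42.3, 45 and 40.5 and then 441, 443 and 440 (2.96 ± 0.13, adjusted p = 1.8e-10). Stmn4, a stathmin that regulates microtubules, was 54.7, 52.6 and 59.6 and then 534, 511 and 509 (2.90 ± 0.11). The summed intensity of the list was 26100 to 28000 on the day 4 arrays and 62700 to 67300 on the day 6 arrays, with no overlap.

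RNA-binding proteins that set neuronal splicing and RNA stability rose in 11 of 16 cases and fell in 1 (median 0.64). Elavl4 and Elavl3, neuronal Hu proteins, went from 170 ± 22.2 to 779 ± 67.9 (2.10 ± 0.1) and from 85.4 ± 24.8 to 402 ± 62.5 (2.06 ± 0.15). Rbfox1, a neuronal splicing factor, was 8.04, 12.7 and 17.4 and then 103, 90.5 and 73.3 (1.87 ± 0.22, adjusted p = 1.1e-05, or 2.76 and 0.99 with pseudocounts of 1 and 64). Celf4 (1.55 ± 0.17), Nova1 (1.21 ± 0.1) and Elavl2 (0.90 ± 0.13) rose less. The member that fell was Ptbp1, which represses neuronal exons in dividing cells, from 3050 to 1950 (-0.65).

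Genes of vesicle release rose beside genes of axon growth. Of 33 synaptic vesicle and secretory granule genes, 23 rose and 1, the prohormone convertase Pcsk1, fell (median 0.71). Chgb, a granin of secretory granules, was 68.7, 65.5 and 42.4 and then 420, 435 and 443 (2.60 ± 0.13, adjusted p = 5.2e-10). Snap25, a SNARE protein of vesicle fusion, went from 60.1 ± 10.1 to 327 ± 38.5 (2.18 ± 0.12), although another of its probe sets had a difference of 0.50. Syt1, the calcium sensor of release, went from 39 ± 3.75 to 227 ± 11.8 (2.14 ± 0.13). Sncg, a synuclein, and Syt4 had differences of 2.21 ± 0.15 and 2.15 ± 0.17, and Scg3 of 1.87 ± 0.09.

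Of 37 channel and transmitter receptor genes, 18 rose and 2 fell (median 0.30), and 10 of the 37 lay below the filter. Cacna2d1, a subunit of voltage-gated calcium channels, was 25.7, 29.6 and 23.5 and then 267, 194 and 257 (2.58 ± 0.14, adjusted p = 2.1e-09). The sodium channel genes Scn3a and Scn3b rose by 1.97 ± 0.18 and 1.80 ± 0.11, and the potassium channel gene Kcnd3 by 1.61 ± 0.15. Gabrb2 and Gabbr1, subunits of receptors for GABA, rose by 1.56 ± 0.22 and 1.54 ± 0.12. The members that fell were the potassium channel gene Kcnk1 and the GABA receptor gene Gabra5.

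Axon guidance and adhesion genes rose in 25 of 40 cases and fell in 5 (median 0.69). Epha3, an ephrin receptor, went from 85.7 ± 8.61 to 532 ± 69.4 (2.43 ± 0.12), and Dcc, the netrin receptor of commissural axons, from 199 ± 9.15 to 1110 ± 72.2 (2.39 ± 0.11, adjusted p = 4.1e-10). Chl1 and Ncam1, adhesion molecules of axons, rose by 2.30 ± 0.16 and 2.03 ± 0.12, and Epha5 by 2.05 ± 0.2. Cntn2, an adhesion molecule of commissural axons, was 3.68, 8.54 and 3.98 and then 71.5, 75 and 70.6. Its difference was 2.05 ± 0.18, or 3.60 and 0.97 with pseudocounts of 1 and 64. The members that fell were Nrp2, Efna5, Unc5b, Slit3 and Sema3c.

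Factors of neuronal subtypes rose in 16 of 28 cases, and 1, En1, fell (median 0.63). Onecut2 went from 81.3 ± 4.11 to 516 ± 55 (2.45 ± 0.12), Pou3f3 from 360 ± 27.9 to 1420 ± 28.8 (1.93 ± 0.1) and Pou4f1, a factor of sensory and some midbrain neurons, from 49.6 ± 8.71 to 208 ± 29.7 (1.77 ± 0.16). The LIM factors of dorsal and intermediate interneurons Lhx9 and Lhx1 rose by 1.88 ± 0.18 and 1.78 ± 0.17. Of 25 transmitter genes, 10 rose and 1 fell (median 0.25), and 11 lay below the filter. Slc17a6, the vesicular transporter of glutamate, was 8.97, 17.3 and 18.2 and then 196, 130 and 191 (2.60 ± 0.23, adjusted p = 4.3e-07, or 3.49 and 1.57 with pseudocounts of 1 and 64). Sst, the peptide somatostatin, went from 50.4 ± 10.6 to 339 ± 29.8 (2.43 ± 0.12). The calcium-binding proteins of interneurons Calb2 and Calb1 rose by 2.49 ± 0.25 and 2.00 ± 0.19. The Calb2 day 4 arrays, at 37.2, 34.5 and 6.53, differed widely among themselves.

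Neural progenitor genes rose in 21 of 29 cases and fell in 4 (median 0.62). Gpm6a, a membrane glycoprotein, went from 159 ± 16.7 to 927 ± 80.3 (2.43 ± 0.1) and Fabp7, the brain fatty acid binding protein of radial glia, from 2170 ± 97.1 to 6690 ± 530 (1.62 ± 0.09, adjusted p = 4.1e-09). Id4, which blocks bHLH factors, rose by 2.12 ± 0.08, the endothelin receptor gene Ednrb by 2.05 ± 0.08 and the FGF receptor gene Fgfr3 by 2.02 ± 0.11. Hes3, a repressor of the early neural plate and isthmus, was 109, 146 and 154 and then 19.4, 24.5 and 31, a fall of 1.89 on the log2 scale (-1.89 ± 0.18). The other members that fell were Sox1, Fgfr1 and Ptn. Of 24 Notch pathway genes, 9 rose and 2, Jag1 and Hey2, fell (median 0.24). Among the ligands Dll3 went from 143 ± 18 to 459 ± 57.5 (1.58 ± 0.12) and Dll1, which neurogenic cells present to their neighbours, from 449 ± 59.1 to 871 ± 75.9 (0.94 ± 0.09). The receptor Notch1 rose by 0.92 ± 0.09. The target Nrarp rose by 1.57 ± 0.09 and the target Hes5, which holds progenitors back, from 1780 ± 270 to 3120 ± 439 (0.81 ± 0.12).

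**Figure D3:**
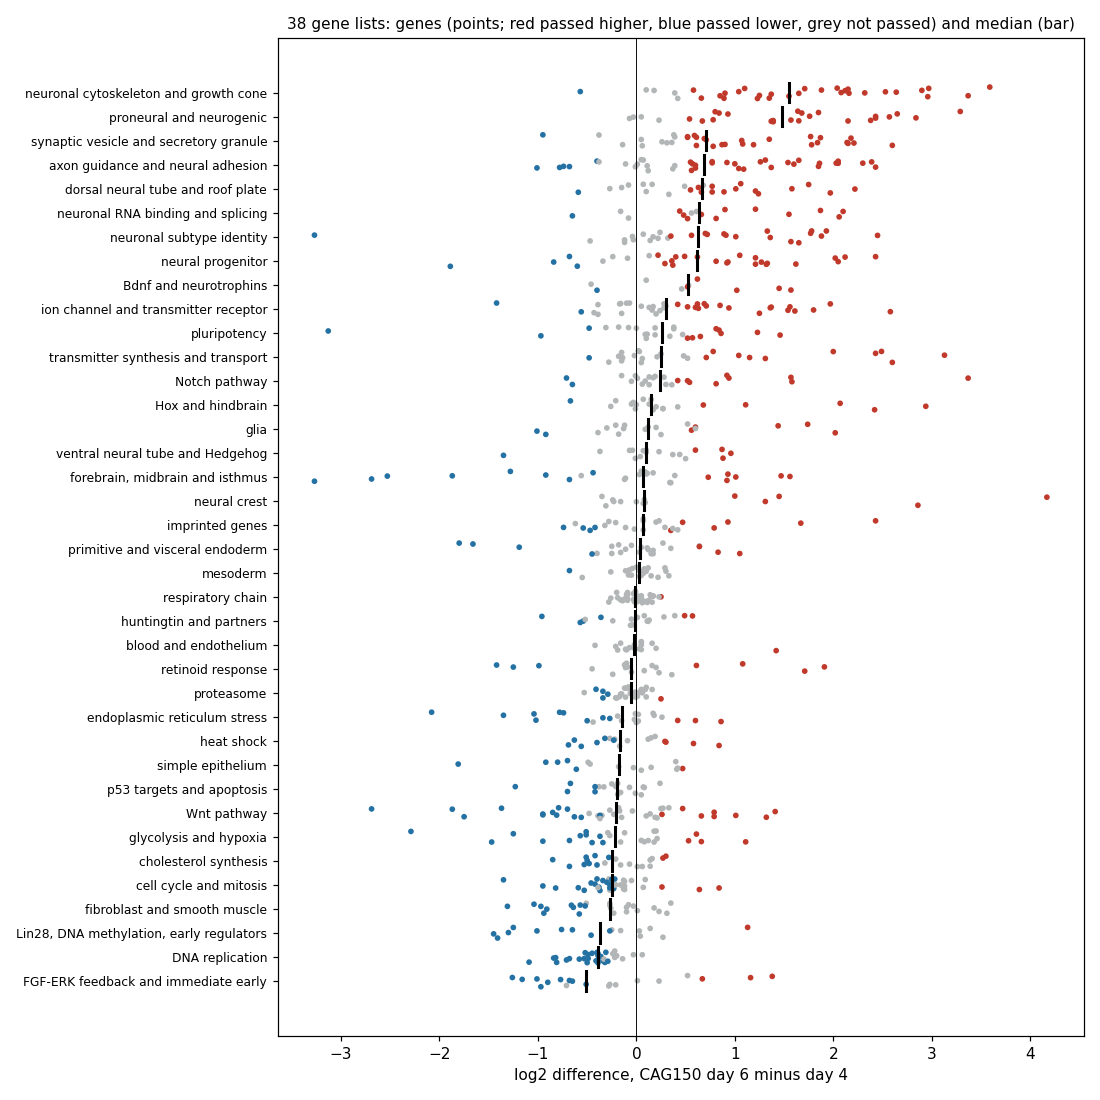
Log2 difference of day 6 minus day 4 in CAG150 (horizontal) for each gene of 38 lists (rows, in order of the median), with red points for genes that passed higher, blue for lower, grey for the others, and a bar at the list's median. The medians run from 1.55 for neuronal cytoskeleton and growth cone genes to -0.51 for FGF-ERK feedback and immediate early genes.

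The stem cell genes did not move as a block. Of 24 pluripotency genes, 8 rose and 3 fell (median 0.27). With quantile normalization or with median centring 6 rose and 3 fell. Eras, a Ras protein of embryonic stem cells, was 226, 227 and 204 and then 8.44, 7.56 and 17.7, an 8.73-fold fall to near background (-3.13 ± 0.18, adjusted p = 4e-09, or -4.26 and -1.91 with pseudocounts of 1 and 64). Sall4 went from 952 ± 50.7 to 477 ± 27.4 (-0.97 ± 0.07), and the other member that fell was Nanog, from 123 to 83.6 (-0.48). Pou5f1, the central factor of pluripotency, was 107, 125 and 82.9 and then 87.4, 140 and 91.3. The days overlapped, with a difference of 0.00 ± 0.21 (adjusted p = 0.99). Dppa5a, an RNA-binding protein of stem cells, was 162, 185 and 179 and then 523, 504 and 505, a rise of 1.46 ± 0.09 (adjusted p = 6.2e-09). Zfp42, the stem cell factor Rex1, was 30.7, 43.2 and 44.6 and then 123, 120 and 97.7 (1.23 ± 0.14, adjusted p = 7.5e-06). L1td1 (0.86 ± 0.15) and Fbxo15 (0.84 ± 0.18) also rose. The summed intensity of the list was 1960 to 2130 at day 4 and 1860 to 2030 at day 6, so the groups overlapped. Without Sall4 it was 1040 to 1120 and 1390 to 1520, with no overlap.

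Regulators of growth and DNA methylation that are high in early embryos fell in 9 of 16 cases and rose in 1 (median -0.36). Lin28a, which blocks the let-7 microRNAs, was 3110, 2920 and 3240 and then 1160, 1360 and 1360 (-1.25 ± 0.11, adjusted p = 3.6e-07). The difference of its other probe set was -0.64. Hmga2, a chromatin protein and let-7 target, went from 1230 ± 85.8 to 490 ± 43.5 (-1.30 ± 0.09), and the growth regulators Myc and Mycn fell by 1.45 and 1.01 on the log2 scale. The 2 other probe sets of Mycn above the filter had differences of -0.72 and 0.32, and 1 of them passed as lower. Dnmt3b, which sets new DNA methylation, was 1550, 1100 and 971 and then 438, 403 and 462 (-1.41 ± 0.16). Tet2, which starts the removal of DNA methylation, was the member that rose, from 48.7 ± 12.3 to 126 ± 26.8 (1.13 ± 0.16).

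Among the 15 largest falls were En1, Wnt1 and Fgf8, which are known from the isthmic organiser, the signalling centre at the boundary of midbrain and hindbrain. En1, a homeodomain factor of that region, was 213, 234 and 284 and then 4.25, 16 and 13.5, a 9.64-fold fall (-3.27 ± 0.18, adjusted p = 2.5e-09, or -4.48 and -2.03 with pseudocounts of 1 and 64). Wnt1, the Wnt ligand that maintains En1 there, was 139, 212 and 227 and then 11, 25.2 and 12.4 (-2.69 ± 0.24, adjusted p = 5.4e-07, or -3.55 and -1.66 with pseudocounts of 1 and 64). Fgf8, the organiser's FGF ligand, was 94.6, 87.2 and 110 and then 9.69, 1.55 and 0.701 (-2.53 ± 0.21, or -4.77 and -1.25 with pseudocounts of 1 and 64). All 3 went from a clear signal on every day 4 array to near background on every day 6 array. Fgf15, another FGF ligand of this region, fell by 1.87 on the log2 scale, from 132 ± 8.81 to 24.6 ± 6.48.

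Of 26 forebrain, midbrain and isthmus genes, 8 fell and 6 rose, against 13.5% and 13.6% of all genes. The list's median of 0.07 became -0.03 with the arrays centred on their medians. Meis1 and Nr2f2, factors with wide roles in hindbrain and forebrain, rose by 1.56 ± 0.08 and 1.47 ± 0.16. Otx2, which specifies forebrain and midbrain, fell from 782 to 408 (-0.92), Gbx2, of the anterior hindbrain, from 225 to 162 (-0.44) and En2 from 132 to 44.5 (-1.28), while Otx1 did not pass. Of 21 Hox and hindbrain genes, 5 rose and 1 fell, against 13.6% and 13.5% of all genes, and 13 lay below the filter (median 0.15). Hoxa2, the most anterior Hox gene of the hindbrain, was 75.7, 70.5 and 66.8 and then 449, 420 and 476 (2.42 ± 0.1, adjusted p = 5.5e-11). Hoxb1, of the fourth hindbrain segment, was 8.37, 3.93 and 0.377 and then 65, 62.2 and 76.3 (2.07 ± 0.18, or 4.10 and 0.95 with pseudocounts of 1 and 64). Hoxb3 rose by 1.11 ± 0.18 (1.84 and 0.51 with these pseudocounts) and Hoxa3 by 0.68 ± 0.2. Hoxa3 did not pass under quantile normalization (adjusted p = 0.057), after median centring (0.052) or with the mean of its probe sets (0.35, adjusted p = 0.082). Nor did it pass without day 4 replicate 1, day 4 replicate 2 or day 6 replicate 2 (0.088, 0.051 and 0.13). Hoxa5, a posterior neighbour, fell by 0.67 on the log2 scale (adjusted p = 0.029), which did not hold without day 4 replicates 1, 2 or 3 or day 6 replicate 3 (0.063, 0.082, 0.072 and 0.15). Its fall did not pass with the mean of its probe sets either (-0.36, adjusted p = 0.094).

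**Figure D4:**
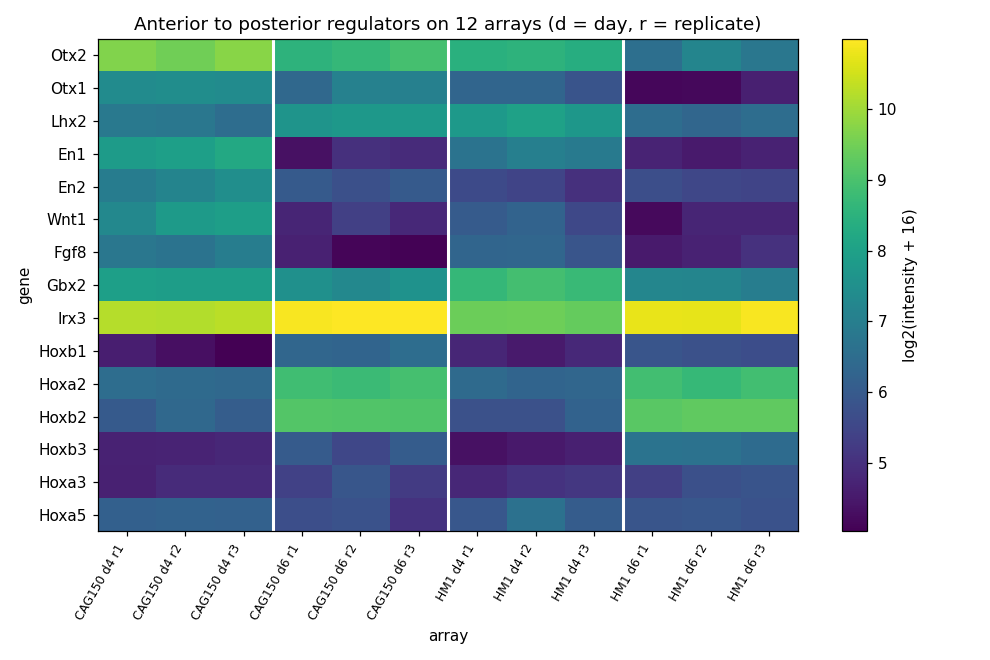
Log2(intensity + 16), as colour, of 15 regional regulators (rows, roughly from anterior to posterior) on the 12 arrays (columns, 3 per line and day, with white lines between groups). In CAG150 the row of En1 goes from 244 to 11.2 and that of Hoxa2 from 71 to 448, and the genes were chosen for this plot after their values were seen.

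Regulators of the dorsal neural tube and roof plate rose in 14 of 24 cases, and 1, Msx1, fell (median 0.67). Rspo2 and Rspo3, secreted R-spondins that strengthen Wnt signals, went from 161 ± 19.5 to 808 ± 109 (2.22 ± 0.17) and from 58.2 ± 1.97 to 235 ± 34.3 (1.75 ± 0.15). Gsx1, a factor of dorsal interneuron progenitors, was 42.5, 33.6 and 50 and then 190, 211 and 228 (1.97 ± 0.17, adjusted p = 5.3e-07). Pax7 and Pax3, paired factors of the dorsal tube, rose by 1.58 ± 0.18 and 1.21 ± 0.16. Lmx1a, a roof plate factor, was 4.46, 4.41 and 0.837 and then 22.4, 38.9 and 28.2 (1.24 ± 0.17, or 2.99 and 0.48 with pseudocounts of 1 and 64). Of 17 ventral and Hedgehog pathway genes, 4 rose and 1 fell (median 0.10), against 13.6% and 13.5% of all genes. The receptor Ptch1 (0.88 ± 0.09) and the co-receptors Gas1 (0.96 ± 0.15) and Boc (0.87 ± 0.1) rose. Other probe sets of Ptch1 (0.40 and 0.51) did not pass, and of the 2 others of Gas1 (0.25 and 0.62) 1 passed. The remaining rise was that of Olig1 (0.60 ± 0.2, adjusted p = 0.044), which lay below the filter. It did not pass under quantile normalization (adjusted p = 0.098) or without any 1 of the CAG150 arrays (0.051 to 0.15). Shh itself and the floor plate factor Foxa2 did not pass, and Olig2 and Nkx2-2, which mark ventral progenitors, lay below the filter.

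Of 19 retinoid response genes, 15 of them above the filter, 4 rose and 3 fell (median -0.05), against 13.6% and 13.5% of all genes. Cyp26b1, which degrades retinoic acid, went from 83.6 ± 2.5 to 359 ± 36.9 (1.91 ± 0.12), and the binding protein Crabp1 went from 1380 ± 126 to 4550 ± 216 (1.71 ± 0.09, adjusted p = 1.5e-09). Tshz1 rose by 1.08 ± 0.12. Rbp4, the serum carrier of retinol, went from 55.1 ± 3.57 to 14 ± 3.87 (-1.25 ± 0.2). Rxrg, a retinoid receptor, and Stra6, the receptor of Rbp4, fell by 1.42 and 0.99 on the log2 scale to day 6 means below the filter. With pseudocounts of 1 and 64 these were -3.20 and -0.57 for Rxrg and -2.0 and -0.41 for Stra6.

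In the Wnt pathway 13 of 38 genes fell and 8 rose (median -0.21). Ligands went both ways: beside the fall of Wnt1, Wnt7b rose from 137 ± 18.7 to 387 ± 3.19 (1.41 ± 0.14) and Wnt7a from 21.5 ± 3.47 to 78 ± 15.4 (1.32 ± 0.19), although another probe set of Wnt7a had a difference of -0.39 and the mean of its probe sets did not pass (0.23, adjusted p = 0.15). Sp5, a direct target of Wnt signalling, went from 86.1 ± 15.6 to 14.3 ± 4.8 (-1.75 ± 0.21, or -2.54 and -0.94 with pseudocounts of 1 and 64). Apcdd1, an inhibitor and target of the pathway, was 586, 726 and 820 and then 160, 151 and 243 (-1.87 ± 0.2, adjusted p = 3.5e-06), and the inhibitor Sfrp1 fell by 1.37 on the log2 scale. FGF-ERK feedback and immediate early genes had the lowest median, -0.51, with 9 of 19 lower and 3 higher. Il17rd, a feedback inhibitor of FGF signalling among the 15 largest falls, was 635, 704 and 670 and then 106, 124 and 91.8 (-2.48 ± 0.11, adjusted p = 1.5e-10), with -0.79 for its other probe set. Etv5 and Spry1, a target and an inhibitor of the same pathway, fell by 1.01 and 0.97 on the log2 scale. The phosphatase gene Dusp4 (1.38 ± 0.11) and Jun (1.16 ± 0.12) were among the 3 that rose, and the other was Fos.

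Genes of DNA replication fell in 23 of 31 cases and rose in 0 (median -0.39). Pold1, the catalytic subunit of DNA polymerase delta, was 813, 913 and 865 and then 402, 383 and 405 (-1.09 ± 0.09, adjusted p = 1.7e-07). The licensing factors Cdt1 and Cdc6 went from 3800 ± 164 to 2140 ± 19.9 (-0.82 ± 0.07) and from 1020 ± 25.4 to 632 ± 11.9 (-0.68 ± 0.08), and Mcm10 and Orc1 fell by 0.84 and 0.81 on the log2 scale. Of 35 cell cycle genes, 17 fell and 3 rose (median -0.25). Under quantile normalization 14 fell and 3 rose, and after median centring 22 fell and 1 rose. Ccne1, the cyclin of entry into DNA synthesis, went from 608 ± 79.8 to 231 ± 54 (-1.35 ± 0.16), Ccnd1 fell by 0.95 and the mitotic kinase gene Nek2 by 0.82 on the log2 scale. On the deposited scale the rises were those of the inhibitors Cdkn2c (0.84 ± 0.15) and Cdkn1b (0.64 ± 0.2), and the third was Mki67. The Cdkn1b rise did not pass with centred arrays (adjusted p = 0.068), without trend (0.078), with the replicate block (0.056) or with the mean of its probe sets (0.37, adjusted p = 0.07), the other of which had a difference of 0.11, nor without day 4 replicates 1 or 2 or day 6 replicates 2 or 3 (0.068, 0.14, 0.15 and 0.1).

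Transporters and enzymes of metabolism were 5 of the 15 largest falls. Slc2a3, a glucose transporter, was 3310, 4230 and 4420 and then 839, 745 and 809 (-2.29 ± 0.1, adjusted p = 2.5e-10). The amino acid transporters Slc38a4 and Slc7a3 went from 338 ± 8.6 to 48.2 ± 4.27 (-2.46 ± 0.09) and from 449 ± 62.4 to 91.9 ± 8.88 (-2.10 ± 0.12). Car3, a carbonic anhydrase, fell by 2.17 and Qprt, of NAD synthesis, by 2.10 on the log2 scale, although another probe set of Qprt had a difference of -0.44. The largest falls also held Tnfrsf19, a receptor of progenitors and a Wnt target, at 652, 634 and 659 and then 72.6, 83.4 and 72.9 (-2.85 ± 0.11), Tcfl5 (-2.40 ± 0.1), the protease gene Klk8 (-2.09 ± 0.2, or -3.26 and -1.10 with pseudocounts of 1 and 64) and the germ cell gene Tex15 (-2.09 ± 0.13). Mtm1, a lipid phosphatase, fell by 2.24 on the log2 scale, but its other probe sets ranged from -2.33 to 0.52.

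Among 26 genes of glycolysis and the hypoxia response, 11 were lower and 4 higher at day 6 (median -0.21). Slc2a1, the widespread glucose transporter, went from 6020 ± 251 to 2160 ± 52.2 (-1.47 ± 0.07, adjusted p = 4.8e-10), and Hk2, the first enzyme of glycolysis, from 830 ± 97 to 337 ± 6.14 (-1.25 ± 0.08). Ldhb, a subunit of lactate dehydrogenase, rose by 1.11 ± 0.11. Of 20 cholesterol synthesis genes, 9 fell and 2 rose (median -0.24), with falls of 0.85 for Lss and 0.68 for Mvd on the log2 scale. Other probe sets of Lss lay between -0.13 and 0.07. In the list of endoplasmic reticulum stress, 9 of 23 fell and 3 rose (median -0.15). The members that fell most were targets of Atf4, which answers a shortage of amino acids: Chac1 was 298, 386 and 394 and then 68.3, 71.5 and 76.7 (-2.08 ± 0.11, adjusted p = 1.2e-09), and Trib3, Asns and Shmt2 fell by 1.35, 1.04 and 1.02 on the log2 scale. Atf4 itself fell by 0.78, while Ern1, a sensor of unfolded protein, rose by 0.86 ± 0.14, with 0.16 for its other probe sets and 0.24 (adjusted p = 0.15) for their mean.

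Of 17 heat shock genes, all above the filter, 6 fell and 4 rose (median -0.17). Over all genes 13.5% fell and 13.6% rose, with larger shares among genes above the filter. All changes of the heat shock genes were less than 2-fold, with Cryab at 0.84 ± 0.14 and Bag3 at -0.69 ± 0.17 the most. Among 18 targets of p53 and apoptosis genes, 5 were lower and 0 higher (median -0.20), led by Pmaip1, which triggers apoptosis, from 63 ± 11.6 to 19.4 ± 14.4 (-1.23 ± 0.23). Of 34 proteasome genes, 4 fell and 1 rose, with falls of up to 0.41 on the log2 scale among those that passed (median -0.06, and 0.03 under quantile normalization). In the respiratory chain 1 of 38 genes rose, Ndufb9 (0.25 ± 0.08), and 0 fell, and this depended on the scaling: 9 rose under quantile normalization and 6 fell after median centring. Ndufb9 did not pass without day 4 replicates 1 or 2 or day 6 replicates 2 or 3 (adjusted p = 0.14, 0.064, 0.11 and 0.083). Of 24 imprinted genes, 22 of them above the filter, 6 rose and 4 fell (median 0.07), against 13.6% and 13.5% of all genes. After median centring 5 rose and 6 fell (median -0.03). Plagl1, a growth regulator, was 842, 947 and 859 and then 2630, 2780 and 3100 (1.67 ± 0.1, adjusted p = 3.4e-09), and Nnat, neuronatin, rose by 0.93 ± 0.14, while Impact fell by 0.74 on the log2 scale (-0.32 and adjusted p = 0.062 with the mean of its probe sets).

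Htt, the gene of the repeat, disagreed between its probe sets. Its brightest probe set was 98.2, 116 and 99.7 at day 4 and 58, 70.9 and 66.3 at day 6 (-0.57 ± 0.13, adjusted p = 0.0039), and the days did not overlap. Its other probe sets above the filter had differences of 0.07 and 0.36, and the mean over the gene's probe sets was 0.03 (adjusted p = 0.91). Hprt was 25.9, 28.4 and 16.1 and then 20, 24.9 and 16.1 (-0.11 ± 0.18, adjusted p = 0.76). The Hprt means were 23.5 and 20.3 in CAG150 and 23.6 and 24.4 in HM1, so Hprt does not tell the lines apart. Htt does not check the label of the line either, since the array does not read the length of a repeat. Of 18 genes of huntingtin and its partners, all above the filter, 4 fell and 2 rose (median -0.01). Over all genes 13.5% fell and 13.6% rose, and these shares were larger among genes above the filter. Of the 18, those that passed included Ppfibp1 (-0.96 ± 0.09), Trip10 (-0.54 ± 0.11), the dynactin subunit Dctn1 (0.57 ± 0.08) and Zdhhc17, a palmitoyl transferase of huntingtin (0.49 ± 0.11). Zdhhc17 did not pass with the mean of its probe sets (0.30, adjusted p = 0.092). Of 10 neurotrophin genes, 5 rose and 1, Ntrk3, fell (median 0.52). The receptors Gfra1, Ngfr and Ntrk2 rose by 1.57 ± 0.13, 1.45 ± 0.16 and 1.02 ± 0.11. Ntrk3 fell by 0.40, with its other probe sets between -0.26 and 0.96, and did not pass without day 4 replicates 2 or 3 or day 6 replicates 1 or 3 (adjusted p = 0.086, 0.083, 0.086 and 0.11), and the Bdnf value of 0.53 did not pass.

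Markers of other cell types were read beside these changes. Of 14 neural crest genes, 5 rose and 0 fell: Tfap2b, Tfap2a (2.86 ± 0.19, or 3.75 and 1.79 with pseudocounts of 1 and 64), Ngfr, Ret and Tfap2c. The crest-defining factors Sox10 (0.09 ± 0.23) and Foxd3 (-0.16, below the filter) did not pass, and the summed intensity of the list was 443 to 500 at day 4 and 1180 to 1360 at day 6, or 432 to 482 and 719 to 796 without Tfap2b. Of 19 glial genes, 5 rose and 2 fell, against 13.6% and 13.5% of all genes. Slc1a2, the glutamate transporter of astrocytes, rose by 1.74 ± 0.13. Aldoc fell by 1.01 on the log2 scale, but by the mean of its probe sets its difference was -0.29 (adjusted p = 0.15), and the other member that fell was Gja1, a gap junction protein, from 3860 to 2030. Gfap, Mog, Mag and S100b, which define mature glia, lay below the filter, and the list's sum was 4680 to 4700 at day 4 and 3390 to 3650 at day 6. Without Gja1 the sum was 791 to 858 at day 4 and 1450 to 1560 at day 6. Among 24 genes of primitive and visceral endoderm, 4 were lower and 3 higher, against 13.5% and 13.6% of all genes. Afp, Apoa1 and Apob lay below the filter. Lrp2 and Apoe, an uptake receptor and a lipid carrier, fell by 1.80 and 1.66 on the log2 scale, and the sum was 3820 to 3950 at day 4 and 3050 to 3290 at day 6. The 2 other probe sets of Lrp2 above the filter had differences of -1.63 and -0.03, and 1 of them passed as lower.

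Among 24 genes of fibroblasts and smooth muscle, 10 were lower and 0 higher (median -0.27). Tpm2, a tropomyosin, went from 357 ± 38.6 to 136 ± 36.6 (-1.31 ± 0.15) and Cnn2, a calponin, from 218 ± 29.6 to 97.8 ± 13.1 (-1.04 ± 0.12), and the summed intensity was 3410 to 3730 at day 4 and 2780 to 2900 at day 6. The 3 other probe sets of Tpm2 above the filter ranged from -1.26 to -0.04, and 1 of them passed as lower. Postn, Lum and Dcn lay below the filter. Of 15 simple epithelium genes, 5 fell and 1 rose. Spint1, an inhibitor of membrane proteases, was 147, 144 and 132 and then 33.9, 18.9 and 35.3 (-1.81 ± 0.14), Cdh1, E-cadherin, rose by 0.47 ± 0.11, and the sum was 1000 to 1040 at day 4 and 710 to 735 at day 6. Of 21 mesoderm genes, 1 fell, Foxc1, and 0 rose, with 15 below the filter and sums of 160 to 236 at day 4 and 150 to 222 at day 6. Of 17 blood and endothelium genes, 1 rose, Lmo2 (1.42 ± 0.18), a factor also of interneurons, with 11 below the filter, among them Gata1, Klf1 and Ptprc, and sums of 151 to 181 and 222 to 250, or 120 to 153 and 119 to 134 without Lmo2. The part of these cell types in the changes of other genes was not tested.

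The day difference of CAG150 was set against that of HM1 by the interaction term of the same fit, which asks for each gene whether the differences differ. It passed for 252 of 18193 genes (1.39%), 107 with a higher and 145 with a lower difference in CAG150. Of the 107, 85 rose in CAG150, and of the 145, 85 fell in CAG150 and 24 rose. Without replicate 2 of HM1 at day 4 the counts were 92 and 135. Without replicate 3 of CAG150 at day 6 the higher count was 68, and without replicate 2 of CAG150 at day 4 the lower count was 95. Among genes above the filter alone, adjusted over those genes, 216 were higher and 298 lower. The summed fibroblast and smooth muscle markers were 11200 to 11900 at day 4 and 12500 to 13900 at day 6 in HM1, above those of CAG150 at both days. Other marker sums also stood apart: in HM1 those of simple epithelium were 3170 to 3700 and then 2190 to 2540, those of endoderm 6780 to 7120 and then 6920 to 7460, and those of pluripotency 4260 to 4620 and then 3910 to 4400, all above CAG150 at the same day. Their part in these differences was not tested.

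Markers of neurons and progenitors differed in whether they passed this test. Pax6, with -0.60 (adjusted p = 0.02), and Gap43, with 0.63 (adjusted p = 0.018), passed, though each missed the threshold without some arrays, with adjusted p up to 0.067 and 0.054. Tubb3 had an interaction of 0.40 (adjusted p = 0.41), Dcx of -0.27 (adjusted p = 0.49) and Nes of 0.06 (adjusted p = 0.96), which did not pass and does not show that the lines changed alike. Stmn2, a stathmin of growing axons, was 609, 663 and 549 and then 2590, 2790 and 2690 in CAG150, while in HM1 it was 2080, 2220 and 2020 and then 2180, 1900 and 2110. In HM1 the days overlapped and in CAG150 they did not, and the interaction was 2.15 (adjusted p = 4.2e-08). Ptf1a, a bHLH factor of dorsal inhibitory neurons, was 0.813, 0.859 and 1.66 and then 72.8, 71.5 and 119 in CAG150, against HM1 means of 7.39 and 9.45 (interaction 2.44, adjusted p = 0.0002). With pseudocounts of 1 and 64 its CAG150 difference of 2.57 ± 0.2 was 5.37 and 1.21.

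Regional regulators were among the genes with a higher day difference in CAG150. Lhx2, a LIM factor of forebrain and dorsal interneurons, was 98.2, 94.9 and 75.5 and then 182, 198 and 207 in CAG150, and 201, 243 and 196 and then 76.2, 64.5 and 75.3 in HM1 (interaction 2.39, adjusted p = 1.7e-06). Rspo3 rose in CAG150 and had HM1 means of 22.3 and 8.95 (2.37, adjusted p = 2e-05). Msx3, a dorsal homeodomain factor, was 152 ± 29.1 and 230 ± 39.5 in CAG150 (0.55 ± 0.16, adjusted p = 0.018) against 98.3 and 22.1 in HM1 (interaction 2.13, adjusted p = 9.2e-05). Its CAG150 rise did not pass after median centring (adjusted p = 0.057), nor without day 4 replicates 1 or 2 or day 6 replicate 3 (0.099, 0.055 and 0.11). Of the 24 dorsal genes, 7 had a higher and 1 a lower difference in CAG150. Tfap2b had HM1 means of 13.9 and 99.7 (2.23, adjusted p = 9.5e-05), Cacna2d1 of 61.1 and 72 (2.39) and Calb2 of 43.9 and 62.4 (2.11, adjusted p = 0.0067).

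Other genes had a lower day difference in CAG150. Dbx1, a factor of intermediate interneuron progenitors, was 447, 400 and 343 and then 404, 463 and 410 in CAG150, where the days overlapped (0.10 ± 0.1, adjusted p = 0.58). In HM1 it was 244, 209 and 245 and then 2130, 1760 and 1950, and the interaction of -2.88 was the largest of either sign among genes that reached an intensity of 50 (adjusted p = 3.8e-08). Neurog1, a proneural factor, rose in CAG150 from 74.3 ± 13.9 to 251 ± 37.4 (1.57 ± 0.16) but in HM1 had means of 27.7 and 477 (interaction -1.93, adjusted p = 0.00023). Its other probe set above the filter had a CAG150 difference of 0.63, which did not pass. Wnt7a had HM1 means of 14.5 and 255 (-1.85). Tecrl and Tox2 did not pass in CAG150 (0.13 ± 0.18 and 0.14 ± 0.16) and had HM1 means of 5.32 and 79.6, and of 151 and 564 (-2.03 and -1.65).

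Further genes with a lower day difference fell in CAG150. Hbegf, an EGF family ligand, was 36.8, 36.9 and 36.5 and then 23.9, 25.7 and 14.5 in CAG150 (-0.51 ± 0.15, adjusted p = 0.02), against HM1 means of 72.8 and 244 (interaction -2.06). Foxc1, a factor of mesoderm, was 8.97, 26.4 and 26.6 and then 4.98, 7.44 and 6.23 in CAG150 (-0.68 ± 0.21, or -1.46 and -0.26 with pseudocounts of 1 and 64) against 44.4 and 106 (-1.69). Neither CAG150 fall passed with a pseudocount of 64. The other probe sets of Hbegf (-0.24) and Foxc1 (-0.08) above the filter did not pass in CAG150. Hbegf did not pass without day 4 replicates 1 or 2 or day 6 replicate 3 (adjusted p = 0.051, 0.053 and 0.1), and Foxc1 did not pass without day 4 replicates 2 or 3 or any 1 of the day 6 replicates (0.052 to 0.13). Apcdd1 had HM1 means of 181 and 169, near the CAG150 mean of 185 at day 6, against 711 in CAG150 at day 4 (-1.83, adjusted p = 0.003). Of the fibroblast and smooth muscle genes, 7 had a lower and 1 a higher difference in CAG150, among them Myl9, a smooth muscle myosin light chain, at 89.8 ± 10.1 and 40.4 ± 9.03 in CAG150 and 317 and 300 in HM1 (-0.85, adjusted p = 0.036, and up to 0.11 without 1 of 9 arrays).

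**Figure D5:**
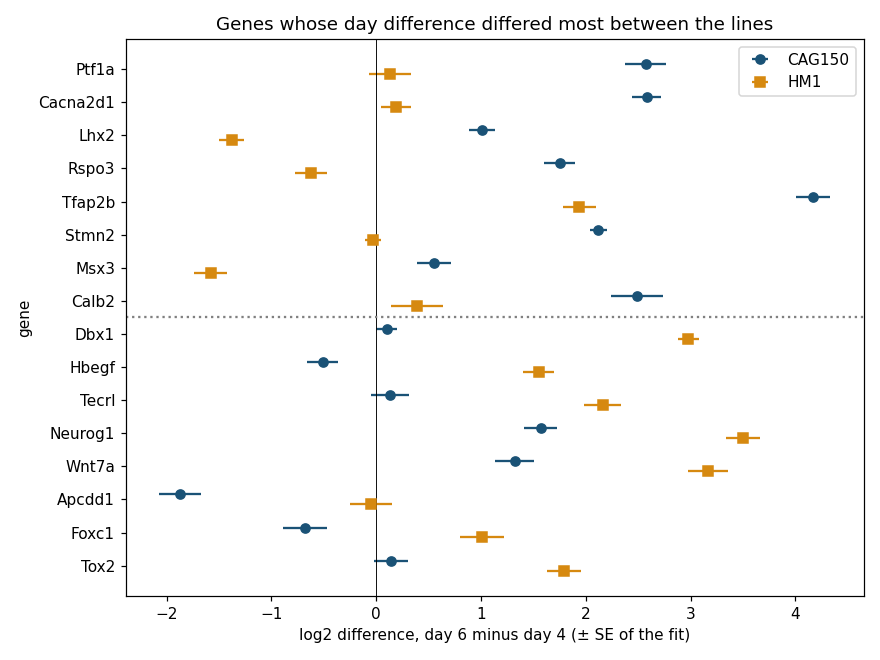
Log2 difference of day 6 minus day 4 (horizontal) in CAG150 (circles) and HM1 (squares), with the SE of the fit as bars, for the 8 genes with the largest positive (above the dotted line) and the 8 with the largest negative interaction. Stmn2 lies at 2.12 in CAG150 and -0.03 in HM1, and Dbx1 at 0.10 and 2.98.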

How the data were processed

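RNA of 12 samples was measured on Affymetrix mouse arrays, 1 array each. The deposited values are linear intensities, scaled by the authors to a trimmed mean of 150 on each array (2% of probe sets trimmed at each end), as read from the values. No source used here names the software. Of 45101 probe sets, 64 controls were left out. By the platform annotation, 34945 have 1 gene symbol, 932 several and 9160 none here. A gene was its brightest probe set with 1 symbol over all arrays, which gave 18193 genes.

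Values were taken as log2(intensity + 16), and a linear model with 4 group means on all 12 arrays was fitted with limma 3.58.1 (R 4.3.3, lmFit and eBayes with trend), with Benjamini-Hochberg adjustment over 45037 probe sets. The fit was tested on simulated data. The number of arrays limits the precision. No set test was made.

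The genes named are Htt, Hprt, Tubb3, Pou5f1, Nes and Pax6, the 15 largest rises and falls, the 8 largest interactions of each sign and up to 6 members of each of 38 lists. The members of the comparison, the lists and the tests were chosen with earlier results of these data known. Genes outside that rule, named to complete a small count or to place a region or cell type, were chosen after their values were seen.

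Alternatives were quantile normalization, median centring, filters at the 40th and 60th percentiles, pseudocounts of 1 and 64, the mean of probe sets, no trend, CAG150 arrays alone, the replicate block and leaving out each array. Leaving out HM1 arrays for the CAG150 comparison, and summed marker levels without the most changed member, were added after the data were seen.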

Additional observations from a re-analysis of the deposited data

Results flagged for a closer look

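Of the genes named, 59 had a day difference in CAG150 that differed from that in HM1 by the interaction term of limma's fit at an adjusted p under 0.05. Values are the log2 day difference in CAG150 minus that in HM1.

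It was higher in CAG150 for 28 genes. The values above the others were those of Ptf1a (2.44), Lhx2 (2.39), Cacna2d1 (2.39), Rspo3 (2.37), Tfap2b (2.23), Stmn2 (2.15), Msx3 (2.13), Calb2 (2.11), Rspo2 (2.10) and Tfap2a (2.05). They were followed by Runx1t1 (1.78), Slc17a6 (1.63), Calb1 (1.55), Lhx9 (1.54), Epha3 (1.48), Plagl1 (1.40), Ckb (1.29), Lmx1a (1.21), Syt1 (1.21) and Cdh1 (1.14). The lowest of them were Mab21l1 (1.03), L1td1 (1.00), Ern1 (0.91), Ntrk2 (0.90), Scn3b (0.80), Cdkn1c (0.77), Gap43 (0.63) and Id4 (0.49).

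It was lower in CAG150 for 31 genes. Farthest below 0 were Dbx1 (-2.88), Hbegf (-2.06), Tecrl (-2.03), Neurog1 (-1.93), Wnt7a (-1.85), Apcdd1 (-1.83), Foxc1 (-1.69), Tox2 (-1.65), Hes3 (-1.51) and Car3 (-1.43). Next came Slc38a4 (-1.27), Chac1 (-1.22), Hmga2 (-1.21), Mtm1 (-1.18), Il17rd (-1.08), Hes5 (-1.06), Ednrb (-1.02), Lamb1 (-0.97), Slc7a3 (-0.94) and Sfrp1 (-0.92). Then came Krt18 (-0.89), Myl9 (-0.85), Crabp1 (-0.82), Apoe (-0.78), Ccnd1 (-0.76), Slc2a3 (-0.75), Slc2a1 (-0.66), Asns (-0.64), Pax6 (-0.60) and Eda2r (-0.52). The nearest to 0 was Gja1 (-0.48).

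Of these genes, 44 passed without each of the 12 arrays in turn. The other 15 did not pass without 1 array or another: Sfrp1, Myl9, Slc2a3, Pax6, Eda2r, Gja1, Id4, Gap43, Scn3b, Ern1, L1td1, Mab21l1, Lmx1a, Slc17a6 and Runx1t1. Their highest adjusted p lay between 0.053 (Sfrp1) and 0.12 (Gja1 and Id4).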

How the results depend on the processing

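The counts of genes higher and lower at day 6 in CAG150 stayed within 1.5 times of 2472 and 2451 under all alternatives run. Leaving out 1 array gave 2067 to 2538 higher and 1992 to 2500 lower genes. For the interaction, with 107 higher and 145 lower genes, leaving out 1 array gave 68 to 93 and 95 to 135. The lowest came without CAG150 day 6 replicate 3 and without CAG150 day 4 replicate 2. With 1 probe set per gene above the 40th percentile it gave 216 and 298, and above the 60th 199 and 265, where fewer features were adjusted over. Replicate numbers did not pair the CAG150 samples (correlations of -0.01, 0.07 and 0.11), and with the replicate block 2351 genes were higher and 2343 lower, and 77 and 106 in the interaction. With the mean of probe sets 15 named genes kept their direction but no longer passed in CAG150. Htt and Ntrk3 did not pass either (limma adjusted p = 0.91 and 0.11). Values that changed sign were Htt (0.03) and Ntrk3 (0.25) with the mean of probe sets, Tecrl (-0.03) and Tox2 (-0.05) without CAG150 day 4 replicate 1, and Tox2 (-0.02) without CAG150 day 6 replicate 3. Leaving out 1 array gave -0.03 to 0.23 for Tecrl and -0.05 to 0.30 for Tox2, which did not pass in CAG150 in any case printed here. The cause was not tested. Signals near background limit the folds of dim genes.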
